A study of Mus musculus with 6 samples.

Results

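The integrated stress response genes that lie under the transcription factor ATF4 were followed in the thymus of CD2-Myc/CD2-Runx2 transgenic mice (RUNX2/MYC) and of C57/CBA mice without the transgenes (WT). The group holds 10 genes, Atf4, Atf3, Atf5, Ddit3, Trib3, Chac1, Ddit4, Cebpb, Cebpg and Ppp1r15a, of 19939 genes that a probe set measured alone. They were taken by name, and each had 1 probe set that the annotation pairs with that gene only. All mice were 10 days old and of a C57BL6/CBA background, the RNA came from whole thymus, and 3 arrays per group were labelled as biological replicates. In the transgenic mice the CD2 control elements direct both transgenes to T cells, the methods give littermates as the source of controls, and mice with a single transgene were not among these arrays.

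Cells that run short of amino acids, fold proteins poorly or lack heme phosphorylate the initiation factor eIF2. General protein synthesis then slows, while the mRNA of Atf4 is translated more, so that ATF4 activity is set largely at the level of its protein, which an array does not measure. ATF4 turns on enzymes that make amino acids, transporters that bring them in and aminoacyl-tRNA synthetases, and under lasting stress also a set of effectors that slow growth, restore translation or favor cell death. The comparison asked whether these effectors were higher in RUNX2/MYC thymus in the way that genes of amino acid supply were.

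The element that ATF4 and its C/EBP partners bind is shown first, since some genes of both kinds hold it. RefSeq promoter windows (GRCm38.p6, 250 bases before to 50 after a start) were found for all 10 genes, Atf5 with more than 1 window. The core TGATGNAA, searched on both strands, lay in 3 of 11 windows of these genes (27.3%) and in 3.97% of all 32851 windows. In windows of amino acid synthesis genes the core lay in 3 of 21 (14.3%), those of Asns, Got1 and Pycr1, and Pycr1 was not measured. Matches are printed in the direction of their gene with the matched bases in capitals. The 3 effector genes come first, and then the measured Asns and Got1.
Atf3, chr1:191183426-191183453, minus strand: cttctcgcacTTGCATCAccaagtccgc
Chac1, chr2:119351039-119351066, plus strand: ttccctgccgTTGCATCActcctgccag
Trib3, chr2:152344029-152344056, minus strand: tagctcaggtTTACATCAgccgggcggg
Asns, chr6:7693215-7693242, minus strand: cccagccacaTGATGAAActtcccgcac
Got1, chr19:43524690-43524717, minus strand: attgcattggTTGCATCAtacaagcctc
In Atf3, Chac1, Trib3 and Got1 the core was read on the opposite strand. It began at base -110 from the start in Atf3, at -193 in Chac1, at 15 after the start in Trib3, at -23 in Asns and at -102 in Got1.

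Ppp1r15a alone of the 10 genes held the cAMP response element TGACGTCA (1.79% of all windows), which is bound by the wider ATF and CREB family, at -12 on the plus strand of the gene.
Ppp1r15a, chr7:45526263-45526290, minus strand: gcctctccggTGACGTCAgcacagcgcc
The E-box CACGTG (7.15% of all windows), to which MYC binds, and the RUNX letters TGTGGT (16.8%) were searched on both strands and lay in none of the 11 windows. These matches did not overlap each other, and a match or its absence describes only the letters of the window.

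The groups were apart at the probe set of Runx2, 1 of the 2 transgenes. It had a log2 signal of 11.82 ± 0.12 (SD, n = 3) in RUNX2/MYC and 7.94 ± 0.0026 (SD, n = 3) in WT thymus. This probe set was named through the study's list of probe sets changed on these same arrays, so a difference was known beforehand. Markers of thymocytes had a mean log2 signal of 11.4 to 11.7 on the RUNX2/MYC and of 11.7 to 11.8 on the WT arrays, against array medians of 7.31 to 7.49, and 7 of 10 had a log2 fold change below 0 with none called. Markers of thymic epithelium had values below 0 in 12 of 12 genes (means of 9.63 to 9.78 against 9.97 to 10.12) and those of B cells in 5 of 5 (7.31 to 7.50 against 7.55 to 7.71), with none called. Erythroid markers had means of 8.18 to 8.89 in RUNX2/MYC against 7.61 to 7.81 in WT, with 3 of 4 values above 0 and 1 below. Epor alone of the 4 was called higher (25%, against 1.68% of all probe sets), by 1.39 on the log2 scale. RUNX2/MYC replicate 2 stood apart in genes of adipocytes, with a mean of 8.24 over 12 of them against 6.94 to 7.35 on the other 5 arrays. Values of the 10 genes below are log2 signals as deposited, and each fold change is RUNX2/MYC minus WT on that scale.

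None of the 10 genes differed between RUNX2/MYC and WT thymus at the threshold used, an adjusted p under 0.05 from limma, with the adjustment of Benjamini and Hochberg made over 35556 probe sets. Array weights, which called 59.9% of all probe sets, were the only one of 15 other settings to call any of them, 2 higher and 3 lower, and the q values that the methods name called none. Over all probe sets 596 (1.68%) were called higher and 45 (0.127%) lower, which became 209 and 45 after 75th percentile centring. The median log2 fold change of the 10 genes was -0.050, against -0.051 over all probe sets, with 4 values above 0 and 6 below. Values ran from -0.22 for Atf3 to 0.28 for Atf4. At an unadjusted p under 0.05 the 2 genes at these ends passed, of 10, where 21.3% of all probe sets did. The 3 RUNX2/MYC arrays lay above all 3 WT arrays for 1 gene (14.3% of all probe sets) and below them for 2 genes (10.1% of all probe sets), and neither count is read as a result.

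**Figure D1:**
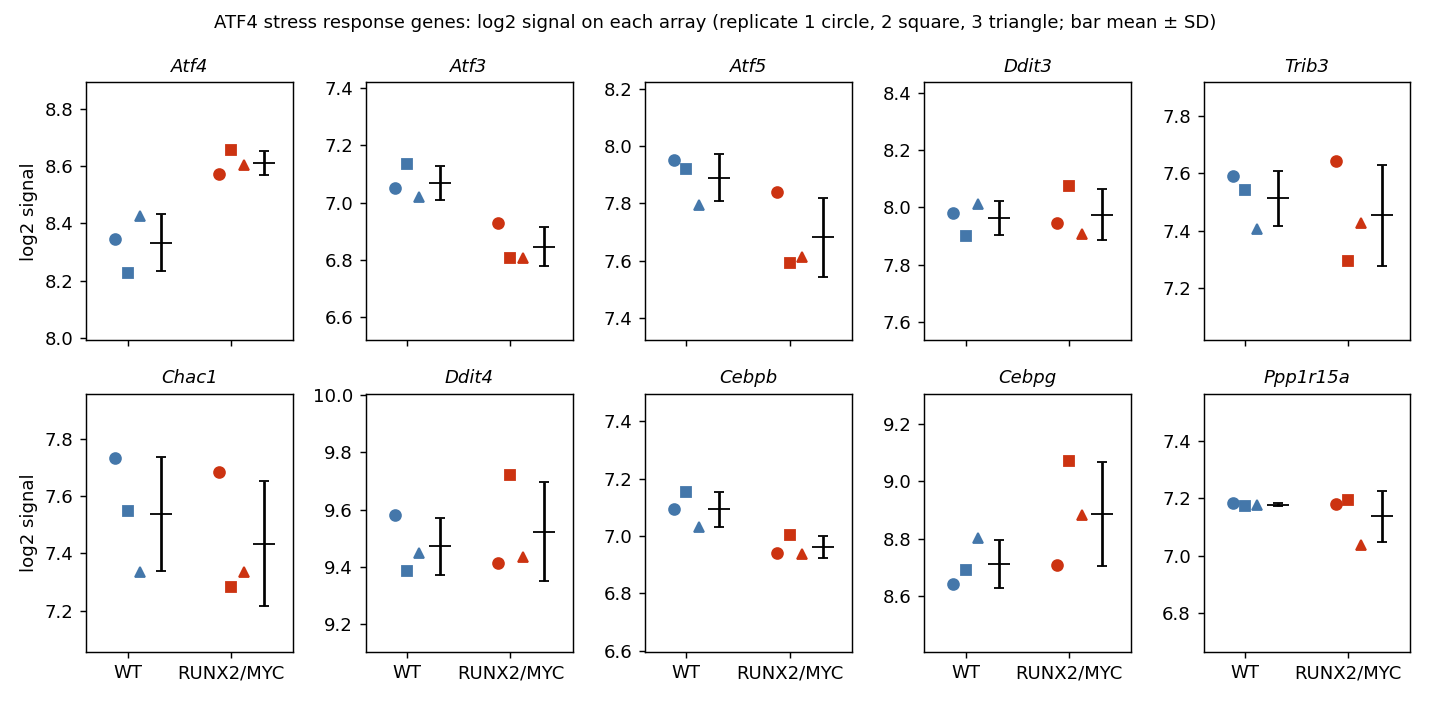
Log2 signal of each ATF4 stress response gene on the 3 WT arrays (blue) and the 3 RUNX2/MYC arrays (red), with the mean and SD of each group in black and each panel spanning the same width of signal. The groups do not overlap for Atf4, Atf3 and Cebpb, and in the other 7 panels the points mix.

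Atf4 encodes the transcription factor at the center of the response. It had log2 signals of 8.57, 8.66 and 8.60 in RUNX2/MYC replicates 1 to 3 and of 8.34, 8.23 and 8.43 in WT replicates 1 to 3. Every RUNX2/MYC array was above every WT array, with the smallest gap between RUNX2/MYC replicate 1 and WT replicate 3. The log2 fold change was 0.28 (standard error 0.089, 95% interval 0.067 to 0.49, adjusted p = 0.166 from limma), that is 1.21-fold, and 14.2% of all probe sets had a larger value. Its value stayed above 0 under each of the 15 other settings, from 0.18 to 0.36.

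Over the 6 arrays, the genes whose centred log2 signals ran closest to those of Atf4, of 19938 compared, were Inpp5b, Gm13375 and Naa50. Their root mean square differences from Atf4 were 0.020, 0.021 and 0.021 on the log2 scale, where Atf4 itself had an SD of 0.17 over the arrays. The fold changes of Inpp5b, an inositol phosphatase gene, and of Naa50, an acetyltransferase gene, were 0.30 and 0.27 on the log2 scale (adjusted p = 0.150 and 0.161 from limma). These genes were picked for closeness on the same arrays, so fold changes near that of Atf4 follow from the choice. A shared control was not tested.

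Cebpg encodes a C/EBP protein that pairs with ATF4 at the element shown above. Its log2 signals were 8.71, 9.07 and 8.88 in RUNX2/MYC and 8.64, 8.69 and 8.80 in WT replicates 1 to 3. RUNX2/MYC replicates 2 and 3 were above the WT arrays, whereas replicate 1 lay among them. Cebpg had a log2 fold change of 0.17 (95% interval -0.099 to 0.45, adjusted p = 0.379 from limma). It was 0.083 without RUNX2/MYC replicate 2, the array high in adipocyte genes, and 0.26 without RUNX2/MYC replicate 1, and neither was called. The part of adipocyte RNA in it was not tested.

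Cebpb, the C/EBP gene that also acts in macrophages and adipocytes, had log2 signals of 6.94, 7.004 and 6.94 in RUNX2/MYC and of 7.09, 7.15 and 7.03 in WT replicates 1 to 3. All RUNX2/MYC arrays were below all WT arrays, by a small gap between RUNX2/MYC replicate 2 and WT replicate 3. Its log2 fold change was -0.13 (95% interval -0.33 to 0.063, adjusted p = 0.359 from limma), and it turned to 0.014 with cyclic loess. Markers of dendritic cells and macrophages lay lower in RUNX2/MYC as well: 13 of 15 had a value below 0 and none was called. Their mean log2 signal was 8.23 to 8.32 on the RUNX2/MYC arrays and 8.43 to 8.49 on the WT arrays, and their part in the value of Cebpb was not tested. Granulocyte markers were below 0 in 8 of 8 and fibroblast markers in 8 of 9, with none called, and their part was not tested. In bulk RNA, fewer cells of a type and less RNA per cell cannot be told apart.

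Atf3, a stress-induced factor that acts beside and after ATF4, lay at the low end of the 10 genes. It had log2 signals of 6.93, 6.81 and 6.81 in RUNX2/MYC and of 7.05, 7.13 and 7.02 in WT replicates 1 to 3, with no overlap. The log2 fold change was -0.22 (standard error 0.086, 95% interval -0.42 to -0.019, adjusted p = 0.212 from limma), or 1.17-fold lower. It was below 0 under all 14 other settings that measured it, between -0.32 and -0.070. Atf5, a relative of ATF4 that is also controlled by translation, had signals of 7.84, 7.59 and 7.61 in RUNX2/MYC and of 7.95, 7.92 and 7.80 in WT. Here RUNX2/MYC replicate 1 was above WT replicate 3 and the groups overlapped. The log2 fold change was -0.21 (95% interval -0.45 to 0.038, adjusted p = 0.283 from limma), and it too was below 0 under all 15 settings, from -0.30 to -0.12.

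Ddit3 encodes CHOP, the factor most often read as a sign of lasting stress. Its log2 signals were 7.94, 8.07 and 7.91 in RUNX2/MYC and 7.98, 7.90 and 8.01 in WT replicates 1 to 3. The groups were mixed, and RUNX2/MYC held both the highest array and, but for 1 WT array, the lowest. Between the groups the log2 fold change was 0.011 (standard error 0.089, adjusted p = 0.945 from limma), with a 95% interval from -0.20 to 0.22.

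Trib3, a pseudokinase that feeds back on ATF4 and CHOP, had log2 signals of 7.64, 7.29 and 7.43 in RUNX2/MYC and of 7.59, 7.54 and 7.41 in WT. RUNX2/MYC replicates held both its highest and its lowest value. Its log2 fold change was -0.059 (95% interval -0.33 to 0.21, adjusted p = 0.759 from limma).

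Chac1, whose enzyme degrades glutathione, showed the widest spread within groups, with an SD of 0.22 in RUNX2/MYC and 0.20 in WT (n = 3 each). Its signals were 7.68, 7.28 and 7.34 in RUNX2/MYC and 7.73, 7.55 and 7.33 in WT, and the groups overlapped over nearly their whole range. Its log2 fold change was -0.10 (95% interval -0.46 to 0.25, adjusted p = 0.671 from limma), and it moved to -0.23 without RUNX2/MYC replicate 1 and to -0.0070 without WT replicate 1. Trib3, Chac1, Atf5 and Atf3 each had their highest RUNX2/MYC value in replicate 1.

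Ddit4 encodes REDD1, an inhibitor of mTORC1 that many stresses induce. It had log2 signals of 9.42, 9.72 and 9.43 in RUNX2/MYC and of 9.58, 9.39 and 9.45 in WT replicates 1 to 3. A single array, RUNX2/MYC replicate 2, lay above all WT arrays. The log2 fold change of 0.051 (95% interval -0.22 to 0.32, adjusted p = 0.791 from limma) became -0.048 without that array, which also has the high adipocyte genes, and the part of these was not tested.

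Ppp1r15a encodes GADD34, which brings a phosphatase to eIF2 and so lets translation resume. Its signals were 7.18, 7.19 and 7.04 in RUNX2/MYC and 7.18, 7.17 and 7.18 in WT replicates 1 to 3. RUNX2/MYC replicate 3 was low and the other 5 arrays nearly coincided. A log2 fold change of -0.041 resulted (95% interval -0.24 to 0.16, adjusted p = 0.771 from limma).

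Across the 10 genes the 95% intervals of limma reached at most 0.49 upward (Atf4) and -0.46 downward (Chac1), that is 1.404-fold higher and 1.37-fold lower. The mean signals of Atf3, Cebpb and Ppp1r15a were brighter than 40.9%, 42.1% and 44.7% of all probe sets, and the files give no detection call.

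Genes of amino acid supply were then read on the same arrays. The shifts of erythroid, epithelial, B cell and thymocyte markers given above lie along the same contrast, and their part in these values was not tested. Of 20 measured genes of amino acid synthesis 7 were called higher and none lower (limma, adjusted p under 0.05), which is 35% against 1.68% of all probe sets. A filter on dim probe sets left 17778 probe sets, of which 1247 were called higher. It left 18 of the synthesis genes, of which 10 were called higher. Over all 20 the median log2 fold change was 0.31, with 16 values above 0 and 4 below. Asns, asparagine synthetase, had log2 signals of 9.94, 9.91 and 10.06 in RUNX2/MYC and of 8.06, 8.13 and 7.95 in WT replicates 1 to 3, a log2 fold change of 1.93 (95% interval 1.71 to 2.15, adjusted p = 0.00191). Bcat1, a branched-chain aminotransferase gene, had one of 1.53, Shmt2 and Shmt1, which interconvert serine and glycine, of 1.02 and 0.78, Aldh18a1, of proline synthesis, of 0.70, and Got1, an aspartate aminotransferase gene, of 0.66. Psat1, of serine synthesis, passed narrowly at 0.50 (adjusted p = 0.04999) and is named because of that, after its value was seen. Pycr3 and Got2 were not called at 0.42 each (adjusted p = 0.0827 and 0.0668).

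The 95% interval lay wholly above those of all 10 effectors for 5 of the 20 genes of synthesis (Asns, Bcat1, Shmt2, Shmt1 and Aldh18a1). Of the other supply genes described next, it did so for 2 of 21 transporters, Slc43a1 and Slc1a5, and for 0 of 18 tRNA synthetases.

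**Figure D2:**
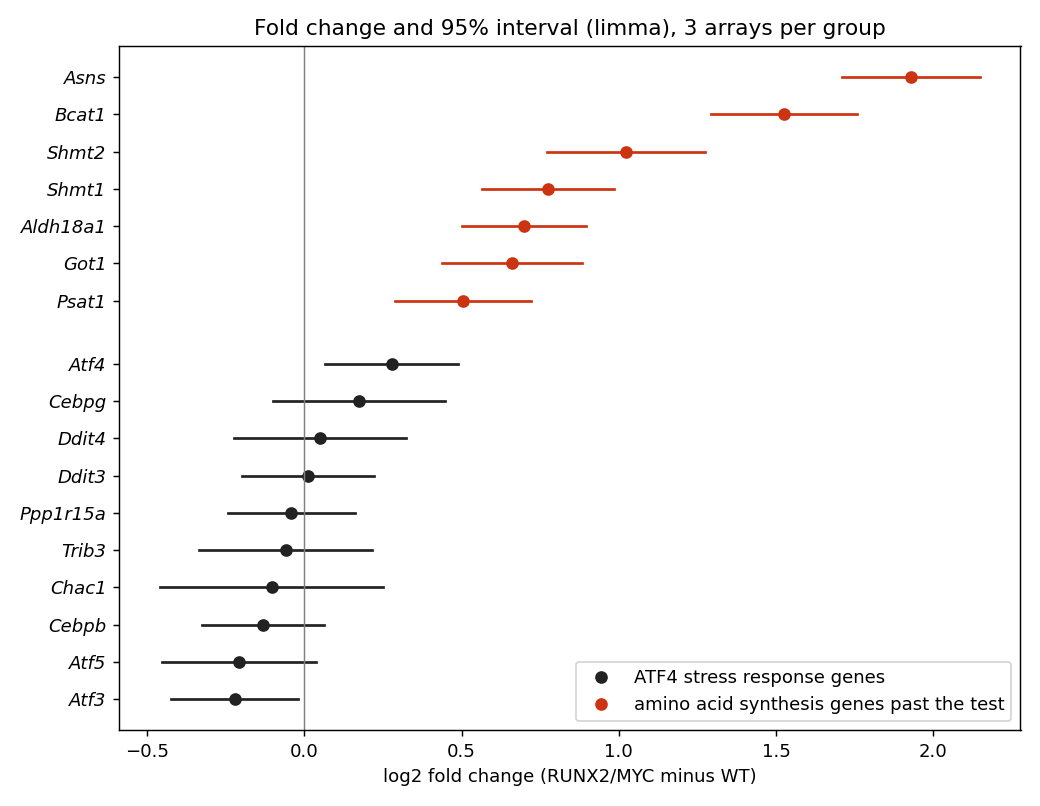
Log2 fold change (points) and 95% interval from limma (lines) of the 10 ATF4 stress response genes (black) and of the 7 amino acid synthesis genes called higher (red), from 3 arrays per group. The intervals of the stress genes end at 0.49 or below, whereas that of Asns starts at 1.71.

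Of 21 genes of amino acid transporters 4 were called higher and none lower (limma, adjusted p under 0.05; 19.0%, against 1.68% of all probe sets), with a median log2 fold change of 0.094. They were Slc43a1 (0.96) and Slc7a5 (0.65), which carry large neutral amino acids, Slc1a5 (0.79), which carries glutamine, and Slc7a1 (0.58), which carries arginine and lysine. Slc7a6 was not called at 0.49 (adjusted p = 0.0541). With the filter on dim probe sets 5 of the 19 transporters left were called higher and 1 lower. Of the 21 values 14 lay above 0 and 7 below. Slc7a11, the cystine transporter gene and a well-known target of ATF4, was among those below. Its log2 signals were 9.49, 9.94 and 9.89 in RUNX2/MYC and 10.25, 10.83 and 10.76 in WT replicates 1 to 3. The groups did not overlap, and its log2 fold change of -0.84 (95% interval -1.30 to -0.38) did not pass (adjusted p = 0.0855).

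All 18 measured genes of cytosolic aminoacyl-tRNA synthetases had RUNX2/MYC arrays above all WT arrays (14.3% of all probe sets did), with a median log2 fold change of 0.48. Called higher were 6 (33.3%, against 1.68%; limma, adjusted p under 0.05): Gars (0.69), Lars (0.62), Eprs (0.58), Rars (0.54), Kars (0.52) and Sars (0.51), whose enzymes load amino acids on tRNA. With the filter on dim probe sets 13 of the 18 were called higher. With 75th percentile centring 0 of the 18 were called (3 of the synthesis genes and 2 of the transporters) and with cyclic loess 2, while all 18 values stayed above 0. Iars at 0.57 (adjusted p = 0.0767) and Yars at 0.49 (adjusted p = 0.0899) were not called. The core TGATGNAA lay in 5 of the 13 promoter windows found for this list (38.5%), and the E-box in 4 of them (30.8%). In the windows of amino acid synthesis genes the E-box lay in 3 of 21 (14.3%, against 7.15% of all windows). They were those of Aldh18a1, which was called higher, Cbs, which was not called, and Ass1, which was not measured. In the windows of the transporters the E-box lay in 2 of 26 (7.69%). Among lists read below, it lay in 3 of 8 windows of the effectors' paralogs (37.5%) and 5 of 21 of immediate early genes (23.8%). Limma called no gene of either list. For other ATF4 targets, with 1 called gene, it was 4 of 18 (22.2%). It was 2 of 18 (11.1%) for the unfolded protein response and 0 of 15 for eIF2 kinases, eIF2 and eIF2B. Whether the E-box goes with the fold changes was not tested.

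The calls in these 3 lists depended on which arrays were kept, and so did those over all probe sets. When RUNX2/MYC replicate 2 or 3, or WT replicate 1 or 2, was left out alone, 1 gene of amino acid synthesis and none of the transporters or synthetases was called, while 3 or 4 of all probe sets were. The median log2 fold changes then were 0.29 to 0.36 for synthesis and 0.42 to 0.47 for the synthetases, of which all 18 stayed above 0, and 0.062 to 0.11 for the transporters. None of the 10 effectors was called in either direction without any 1 array.

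**Figure D3:**
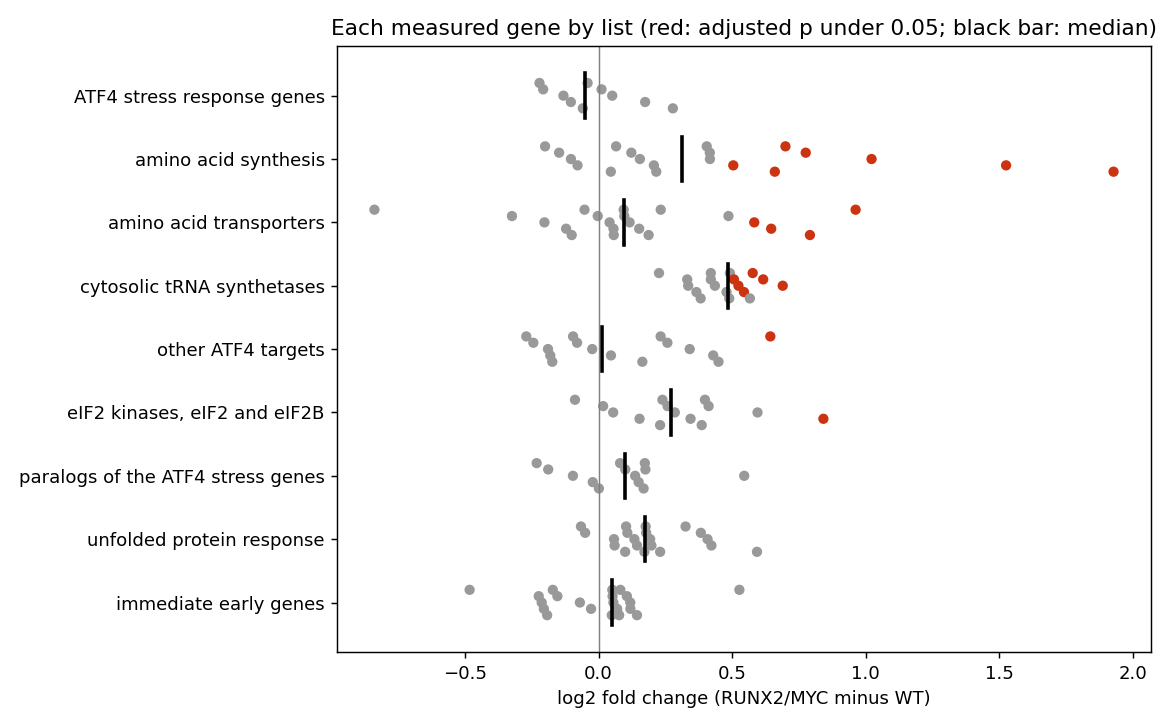
Log2 fold change, RUNX2/MYC minus WT, of each measured gene in 9 lists, with genes past the limma threshold of 0.05 in red and the median of each list as a black bar. The median is highest for the cytosolic tRNA synthetases (0.48) and is -0.050 for the ATF4 stress response genes, which hold no red point.

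Other targets of ATF4 were mixed. Of 16 measured, 1 was called higher (6.25%, against 1.68% of all probe sets) and none lower (limma, adjusted p under 0.05), namely Stc2, a secreted glycoprotein gene, with log2 signals of 8.35, 8.21 and 8.16 in RUNX2/MYC and of 7.62, 7.64 and 7.52 in WT and a log2 fold change of 0.64 (adjusted p = 0.0280). The median of the list was 0.011, with 8 values above 0 and 8 below. At an unadjusted p under 0.05 from limma 6 of the 16 passed (21.3% of all probe sets did). Among the 11 left by the filter on dim probe sets the median was 0.23 and 2 were called higher, where the 7 effectors left had a median of 0.011. Over all 17778 probe sets left by this filter 1247 were called higher and the median was 0.065. Ero1l, an oxidase of the endoplasmic reticulum, at 0.45 (adjusted p = 0.124) and Mthfd2, of mitochondrial folate metabolism, at 0.43 (adjusted p = 0.0778) were not called.

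Upstream of ATF4, 1 of 14 genes of the eIF2 kinases, eIF2 and its exchange factor eIF2B was called higher (7.14%, against 1.68% of all probe sets) and none lower. This was Eif2b3, a subunit of eIF2B, at 0.84 (adjusted p = 0.0140 from limma). Of the 14 genes 13 had values above 0, 10 had all RUNX2/MYC arrays above the WT arrays (14.3% of all probe sets did) and 8 passed an unadjusted p under 0.05 (21.3% of all probe sets). The median log2 fold change was 0.27, and the eIF2 subunit genes Eif2s2 and Eif2s3x had values of 0.60 and 0.41 (adjusted p = 0.0836 and 0.0627).

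Paralogs of the 10 genes gave no call among 13 measured, with a median log2 fold change of 0.10 and 1 of them at an unadjusted p under 0.05 (21.3% of all probe sets) and none by the methods' q values. The extremes were Atf6, a sensor of unfolded protein, at 0.55 (adjusted p = 0.156 from limma) and Cebpe, of granulocyte development, at -0.23 (adjusted p = 0.394).

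Among 20 genes of the unfolded protein response, which shares Ddit3 and eIF2 phosphorylation with this pathway, none was called, 7 passed an unadjusted p under 0.05 (21.3% of all probe sets) and 18 had values above 0, with a median log2 fold change of 0.17. All RUNX2/MYC arrays lay above the WT arrays for 12 of them (14.3% of all probe sets). By the methods' q values 3 were called higher, where 1213 of all 35556 probe sets were. Sdf2l1 at 0.59 (adjusted p = 0.0547 from limma) and Pdia4 at 0.42 (adjusted p = 0.0556), both of protein folding in the endoplasmic reticulum, were nearest to a call.

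Immediate early genes, which respond to cell handling as Atf3 and Ppp1r15a do, had no call among 21. The median log2 fold change was 0.051, and 2 passed an unadjusted p under 0.05 (21.3% of all probe sets). By the methods' q values 1 of the 21 was called higher, where 1213 of all 35556 probe sets were. Their mean log2 signal was 8.71 to 8.88 on the RUNX2/MYC arrays and 8.78 to 8.83 on the WT arrays. Klf2 at 0.53 (adjusted p = 0.0502 from limma) and Myc at -0.48 (adjusted p = 0.119) had the largest values, and the mouse probe set of Myc need not read the transgene.

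**Figure D4:**
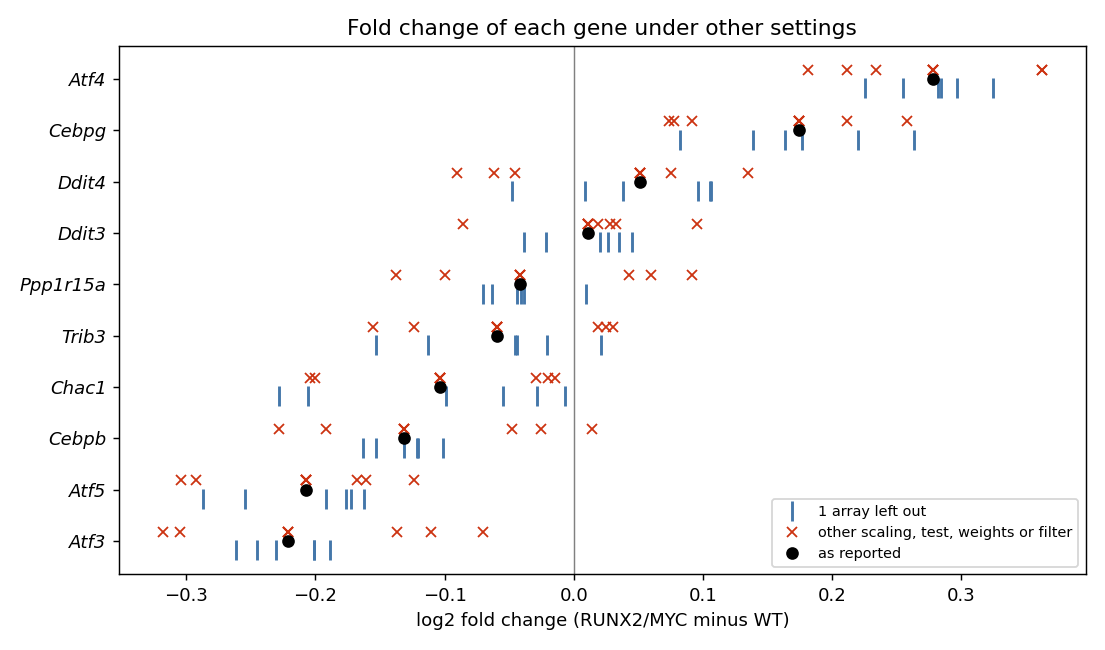
Log2 fold change of each ATF4 stress response gene as reported (black points), with 1 array left out (blue bars) and under other scaling, tests, weights or filters (red crosses). Atf4 and Cebpg stay above 0 and Atf3, Atf5 and Chac1 below 0 throughout, while Ddit4, Ddit3, Ppp1r15a, Trib3 and Cebpb fall on both sides of 0.

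The sign of the smaller values depended on the scaling of the arrays. Atf4 and Cebpg were above 0, and Atf3, Atf5 and Chac1 below 0, under every setting that measured them. After 75th percentile centring the 10 genes had a median of -0.15, the same as that of all probe sets.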

How the data were processed

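Total RNA of whole thymus was measured on Affymetrix MoGene-1 arrays. The deposited values are log2 signals per probe set, which the authors normalized by RMA. The submitters' processing notes name RMA and Affymetrix Expression Console 1.4, whereas Partek Genomics Suite and an adjustment for GC content are given in the methods. RMA tends to compress differences of dim probe sets. Of 35556 probe sets the platform annotation pairs 21789 with 1 symbol, 1621 with several and 12146 with none. A gene was read from its brightest probe set paired with that gene alone. Groups came from sample titles. The groups were compared in limma 3.58.1 (lmFit, eBayes; R 4.3.3), a script tested on simulated data, with p-values adjusted by Benjamini-Hochberg over every probe set and a threshold of 0.05. The p-values set the difference between groups against the spread of arrays within them, which eBayes moderates over all probe sets. The number of arrays limits the precision.

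The 10 genes and the lists were chosen with earlier results of these data known. Of the genes in other lists, up to 6 called ones and the 2 uncalled ones of largest absolute fold change were named. Of 245 list entries 228 were measured, and 14 pathway genes were looked up through RefSeq (GRCm38.p6). The labels do not say that replicate numbers pair the arrays, and the main fit did not use them. Alternatives were 4 scalings, a filter, the methods' q values, array weights, a replicate block, averaged probe sets and leaving out each array.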

Additional observations from a re-analysis of the deposited data

How the results depend on the processing

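None of the 10 ATF4 stress response genes was called under 14 of the 15 alternatives, the exception being array weights, which called 2 of them higher (Atf4, adjusted p = 0.00306, and Cebpg, 0.0275) and 3 lower (Atf3, 0.00391, Atf5, 0.00565, and Cebpb, 0.0170). These weights ran from 0.300 to 6.21 without the fit reaching its tolerance, and they called 9165 probe sets higher and 12137 lower, 59.9% of all. Without RUNX2/MYC replicate 2 or 3, or WT replicate 1 or 2, only 3 or 4 of all probe sets were called higher and 0 lower. The absence of calls among the 10 genes there says little. Without array weights the adjusted p of Atf4 ran from 0.0693 to 0.483. The median of the 10 genes moved to -0.15 with 75th percentile centring and ran from -0.092 to -0.014 with 1 array left out.

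Signs of single genes turned as follows. Trib3 was 0.025 with median centring, 0.019 with quantile normalization and 0.031 with cyclic loess, and -0.15 to 0.021 with 1 array left out. Ppp1r15a was 0.043, 0.060 and 0.091 under the same 3, and -0.070 to 0.0095 with 1 array left out. Ddit4 was -0.046 with 75th percentile centring, -0.061 with quantile normalization and -0.091 with cyclic loess, and -0.048 to 0.11 with 1 array left out. Ddit3 was -0.086 with 75th percentile centring and -0.039 to 0.045 with 1 array left out. Cebpb was 0.014 with cyclic loess. The causes were not tested.

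Probe sets called higher and lower numbered 915 and 48 with median centring, 209 and 45 with 75th percentile centring, 543 and 98 with quantile normalization, 457 and 124 with cyclic loess, 1247 and 145 with the filter on dim probe sets, which tests fewer probe sets, and 1213 and 247 with the methods' q values. With 1 array left out they ran from 3 to 872 higher and from 0 to 718 lower. Genes of amino acid synthesis called higher numbered 3 with 75th percentile centring, 13 (and 1 lower) with array weights, and 1 to 6 with 1 array left out. Transporters numbered 2 with 75th percentile centring, 8 (and 3 lower) with array weights, and 0 to 5 with 1 array left out, with 1 called lower under cyclic loess, the filter and the replicate block. Synthetases numbered 0 with 75th percentile centring, 2 with cyclic loess, 13 with the filter, 18 with array weights and 0 to 7 with 1 array left out.

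The labels do not say what arrays of the same replicate number share. Deviations from the group means of arrays with numbers 1 to 3 correlated across probe sets at 0.50, -0.15 and 0.61. Of 6 arrays 4 correlated best with their own number, and the source of this was not tested. With the replicate block 1654 probe sets were called higher and 763 lower, and none of the 10 genes. The filter left out Atf3, Cebpb and Ppp1r15a, whose dim signal limits what could be seen.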
